A study of Homo sapiens with 30 samples.

Results

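The genes of DNA replication and S phase, 46 in all, were followed in THP-1 cells kept with or without nanomaterials. A probe set was used when the platform annotation gave it to 1 of these symbols alone, current or older, and the probe set with the highest mean over the arrays stood for its gene. Of the 46 genes, 45 were measured, and those 45 also passed the filter on low values, among 10050 genes tested. UHRF1, which brings the maintenance DNA methyltransferase to newly copied DNA, had no level here and enters the promoter counts only. THP-1 is an established human acute monocytic leukemia line, and the labels give ATCC as its source. Cells of all groups, controls included, had been made adherent and macrophage-like with 82 nM phorbol 12-myristate 13-acetate (PMA) for 24 h, then scraped, counted and plated again. They were then kept for 1 or 24 h with multi-walled carbon nanotubes (MWCNT) at 10 or 100 µg/ml, with titanium dioxide nanobelts (TiO2-NB) at 10 or 100 µg/ml, or as controls at 0 µg/ml. RNA came from the cells that still adhered after a wash, so cells that had come loose were not measured. Each of the 10 groups had 3 arrays, which the design text calls biological replicates, and n = 3 per group holds throughout. Values are log2 intensities, on which a difference of 1 is 2-fold, and levels of different genes are not compared because probe sets differ in their binding.

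Before S phase, the origin recognition complex (ORC), CDC6 and CDT1 load the MCM2 to MCM7 helicase ring onto DNA, and geminin (GMNN) binds CDT1 to prevent loading a second time. When an origin fires, CDC45 and the GINS complex join the ring, primase and the polymerases copy both strands, and RFC loads the sliding clamp PCNA that holds the polymerases on DNA. Many of these genes are transcribed at the G1/S boundary through E2F factors, which RB family proteins hold back until cyclin and CDK complexes release them. THP-1 cells divide in suspension, and treatment with PMA is known to slow their division as they take on macrophage features.

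Replication transcripts were lower in control cells after 24 h of culture than after 1 h, and cells kept with 100 µg/ml MWCNT for the same 24 h had levels near those at 1 h. The mean log2 level of the 45 genes was 7.94, 7.73 and 7.73 on the arrays with 100 µg/ml MWCNT at 24 h, against 6.88, 7.02 and 7.30 on the 24 h control arrays. On the 24 h arrays with 100 µg/ml TiO2-NB it was 7.60, 7.23 and 7.21. The MWCNT arrays lay above each of the control arrays at 24 h, and the TiO2-NB arrays overlapped the controls. With 10 µg/ml at 24 h the group means were 7.21 ± 0.17 for MWCNT and 7.12 ± 0.24 for TiO2-NB, beside 7.07 ± 0.21 in the controls (SD). All groups at 1 h lay between 7.71 and 7.82, with 7.72 ± 0.07 in the 1 h controls. In bulk RNA, fewer cells in S phase and less of these transcripts per cell cannot be told apart.

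**Figure D1:**
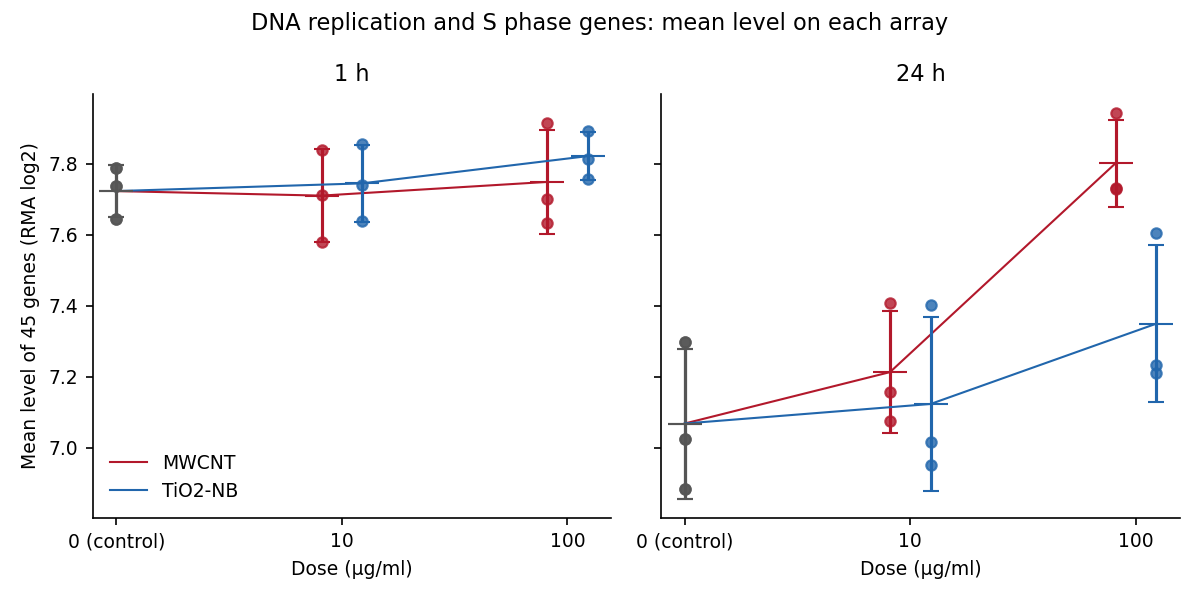
The vertical axis is the mean log2 intensity of the 45 replication genes on an array and the horizontal axis the dose in µg/ml, in 1 panel for 1 h and 1 for 24 h; points are arrays and bars are group means with SD. At 24 h the 3 arrays with 100 µg/ml MWCNT lie between 7.73 and 7.94, above the control arrays at 6.88 to 7.30.

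The 30 arrays had medians between 6.35 and 6.46, and any 2 of them correlated at 0.963 or above, or at 0.991 or above within a group. Residual SDs were larger for the replication genes (median 0.205) than over all genes (median 0.128). At 24 h the array means of the 45 genes were highest on replicate 3 in the control and 10 µg/ml groups and highest on replicate 1 in both 100 µg/ml groups. The macrophage and monocyte markers tested (9 of the 10 listed) had array means of 9.53 to 9.66 with 100 µg/ml MWCNT and 9.23 to 9.35 with 100 µg/ml TiO2-NB, against 9.58 to 9.65 in controls at 24 h. The 8 promonocyte and granule markers, which mark the undifferentiated line, had array means of 7.30 to 7.58 with 100 µg/ml MWCNT and 7.07 to 7.65 with 100 µg/ml TiO2-NB, against 7.26 to 7.81 in controls at 24 h. In the 1 h controls the macrophage and monocyte markers ranged from 8.88 to 9.09 and the promonocyte and granule markers from 8.92 to 9.15. Of lymphocyte markers 6 of 8 were tested, and their array means were 5.99 to 6.14 with 100 µg/ml MWCNT and 6.07 to 6.22 in the 24 h controls. Of epithelial markers 3 of 6 were tested, with array means of 5.88 to 6.10 and 6.08 to 6.18 in these groups. Of fibroblast markers 5 of 7 were tested, with array means of 6.60 to 6.77 and 6.39 to 6.51, and PDGFRA rose (log2 fold change 1.08 ± 0.15). Arrays give no true zero, and the part of these markers in the results was not tested.

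Promoters were read because these genes share E2F control as background and moved together. Of 46 genes, 40 had an entry among RefSeq promoters on GRCh38.p14, which run from 250 bases before to 50 bases after a gene's start, and MCM4, MCM5, POLD3, RPA2, RPA3 and CCNE2 had none. On either strand, 4 E2F words were searched (TTTGGCGC, TTTCCCGC, TTTGCCGC and TTTCGCGC), and some overlap on opposite strands. They occurred in 19 of the 40 promoters (47.5%), against 421 of 8129 promoters of genes tested (5.18%) and 908 of 27305 in the whole table (3.33%). In 24 promoters of mitosis genes the E2F words occurred in 3 (12.5%). The CHR words TTTGAA and TTCGAA, of the element known from mitosis promoters, occurred in 2 of 40 replication promoters (5.0%) and 19 of 24 mitosis promoters (79.2%), against 11.6% of promoters of genes tested and 16.6% in the whole table. The CCAAT word occurred in 22 of 40 replication promoters (55.0%) and in 79.2% of the mitosis promoters, against 37.0% of genes tested and 35.7% in the whole table. A match describes the letters only. The 6 stretches of 250 bases before the start below are those of genes that the results turn on, 4 that rose with 100 µg/ml MWCNT at 24 h and 2 that did not pass the test, with the E2F words in capitals. TYMS lies at chr18:657403-657652 on the plus strand, PCNA at chr20:5126623-5126872 on the minus strand, and MCM6 at chr2:135876444-135876693 on the minus strand. RFC3 lies at chr13:33817899-33818148 on the plus strand, E2F1 at chr20:33686386-33686635 on the minus strand, and RFC2 at chr7:74254400-74254649 on the minus strand.
TYMS: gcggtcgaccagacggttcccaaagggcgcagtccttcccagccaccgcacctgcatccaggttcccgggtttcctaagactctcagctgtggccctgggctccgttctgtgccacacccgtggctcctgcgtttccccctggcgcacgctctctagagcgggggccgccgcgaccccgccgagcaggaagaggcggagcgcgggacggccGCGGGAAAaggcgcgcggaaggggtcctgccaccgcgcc
PCNA: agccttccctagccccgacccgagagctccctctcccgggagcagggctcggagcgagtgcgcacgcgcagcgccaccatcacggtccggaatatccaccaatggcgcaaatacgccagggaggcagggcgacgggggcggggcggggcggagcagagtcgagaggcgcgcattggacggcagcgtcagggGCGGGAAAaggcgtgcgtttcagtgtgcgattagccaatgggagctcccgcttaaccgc
MCM6: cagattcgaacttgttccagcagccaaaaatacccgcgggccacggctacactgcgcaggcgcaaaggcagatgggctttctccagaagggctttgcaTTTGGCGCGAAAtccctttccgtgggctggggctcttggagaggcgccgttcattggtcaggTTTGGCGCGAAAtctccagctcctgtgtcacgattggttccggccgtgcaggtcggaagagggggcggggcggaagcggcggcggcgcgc
RFC3: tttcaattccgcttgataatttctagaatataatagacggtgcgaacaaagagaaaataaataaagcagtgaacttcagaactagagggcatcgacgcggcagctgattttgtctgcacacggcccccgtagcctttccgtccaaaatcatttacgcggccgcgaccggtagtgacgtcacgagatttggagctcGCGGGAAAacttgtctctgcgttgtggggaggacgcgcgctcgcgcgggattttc
E2F1: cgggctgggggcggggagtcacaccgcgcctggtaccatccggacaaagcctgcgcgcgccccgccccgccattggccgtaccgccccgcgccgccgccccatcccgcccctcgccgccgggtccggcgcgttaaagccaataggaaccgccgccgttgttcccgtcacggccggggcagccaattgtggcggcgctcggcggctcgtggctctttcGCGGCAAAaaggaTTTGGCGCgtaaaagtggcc
RFC2: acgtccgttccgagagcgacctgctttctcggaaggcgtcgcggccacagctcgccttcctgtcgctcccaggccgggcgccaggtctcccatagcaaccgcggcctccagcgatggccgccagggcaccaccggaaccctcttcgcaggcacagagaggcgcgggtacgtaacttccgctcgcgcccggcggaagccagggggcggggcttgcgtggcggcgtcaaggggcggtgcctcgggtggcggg
The TYMS, PCNA and RFC3 stretches hold 1 E2F word each, beginning 39, 59 and 55 bases before the start. The MCM6 stretch holds 4, as overlapping pairs on opposite strands at both places in capitals. The E2F1 stretch holds 2, beginning 33 and 20 bases before the start, and the RFC2 stretch has no match. Genes that rose could also lack a match, as did RRM2, MCM10, CDC7 and RFC4.

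Control cells had lower replication transcripts at 24 h than at 1 h, a comparison of culture time without particles. Of 45 genes, 33 fell and 0 rose by limma at an adjusted p under 0.05 (73.3%), where 16.1% of all genes fell and 20.8% rose. On 35 genes the 24 h arrays lay below the 1 h arrays, a pattern found for 19.6% of all genes. The median log2 fold change was -0.62, beside 0.03 over all genes, and 11 genes changed at least 2-fold. GMNN (probe set 218350_s_at), geminin, had levels of 5.61, 5.82 and 5.89 in controls at 24 h, against 7.52, 7.55 and 7.47 at 1 h. The groups were far apart, and GMNN fell by 1.74 ± 0.11 (adjusted p = 6.56e-12 by limma). RRM2, the inducible small subunit of ribonucleotide reductase, had levels of 7.74, 8.01 and 8.48 at 24 h, against 9.66, 9.11 and 9.82 at 1 h. The arrays did not overlap, and its log2 fold change was -1.45 ± 0.24 (adjusted p = 3.45e-05). CDC7, the kinase that triggers firing, and GINS1, a GINS subunit, each had a log2 fold change of -1.39.

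None of the 3 G1/S regulators passed the test in the controls on the probe set used. CCNE1, cyclin E1, had levels of 6.82, 6.86 and 7.28 in controls at 24 h, against 6.92, 6.94 and 6.85 at 1 h (0.08 ± 0.13). CCNE2, cyclin E2, had levels of 6.23, 6.88 and 7.20, against 7.16, 6.74 and 6.94 (-0.18 ± 0.29), and E2F1 had 6.71, 6.82 and 6.97, against 7.07, 7.10 and 6.93 (-0.20 ± 0.10). For each of these 3 genes the arrays of both times overlapped, and adjusted p was 0.694 for CCNE1, 0.695 for CCNE2 and 0.127 for E2F1. On the other probe set of E2F1, 2028_s_at, the level fell by limma (-0.33 ± 0.09, adjusted p = 0.00584), so the E2F1 result depends on the probe set. The genes with a fold change above 0 were RPA1 (0.14 ± 0.10), CCNE1, RFC2 (0.06 ± 0.08) and RPA2 (0.05 ± 0.10), none of which passed the test. By role, 5 of 5 licensing genes, 5 of 6 MCM subunits, 4 of 6 firing genes, 7 of 8 primase and polymerase genes and 4 of 4 nucleotide supply genes fell. So did 4 of 6 clamp and loader genes, 1 of 3 single-strand binding subunits, 1 of 2 Okazaki fragment genes and 2 of 2 chromatin assembly genes. Leaving out 1 array at a time ended the call of CDT1, MCM2, MCM3, MCM5, MCM6, POLA1, PRIM2 or CHAF1B at least once, and 25 genes were called each time.

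After 24 h with 100 µg/ml MWCNT, replication transcripts were higher than in controls of the same time in nearly every role. Of 45 genes, 37 rose and 0 fell (82.2%), where 8.99% of all genes rose and 4.04% fell. Fold changes were above 0 for 44 genes, with a median of 0.78 (1.72-fold) beside -0.01 over all genes, and 13 genes rose at least 2-fold. On 42 genes the 3 MWCNT arrays lay above the 3 control arrays, a pattern found for 17.1% of all genes. The genes that did not pass the test were CDT1, PRIM2, RFC1, RFC2, RFC5, RPA1, RPA2 and E2F1. Without 1 of the 6 arrays the number that rose was 29 to 35, and with the replicate number as a block among these 6 arrays alone it was 17.

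**Figure D2:**
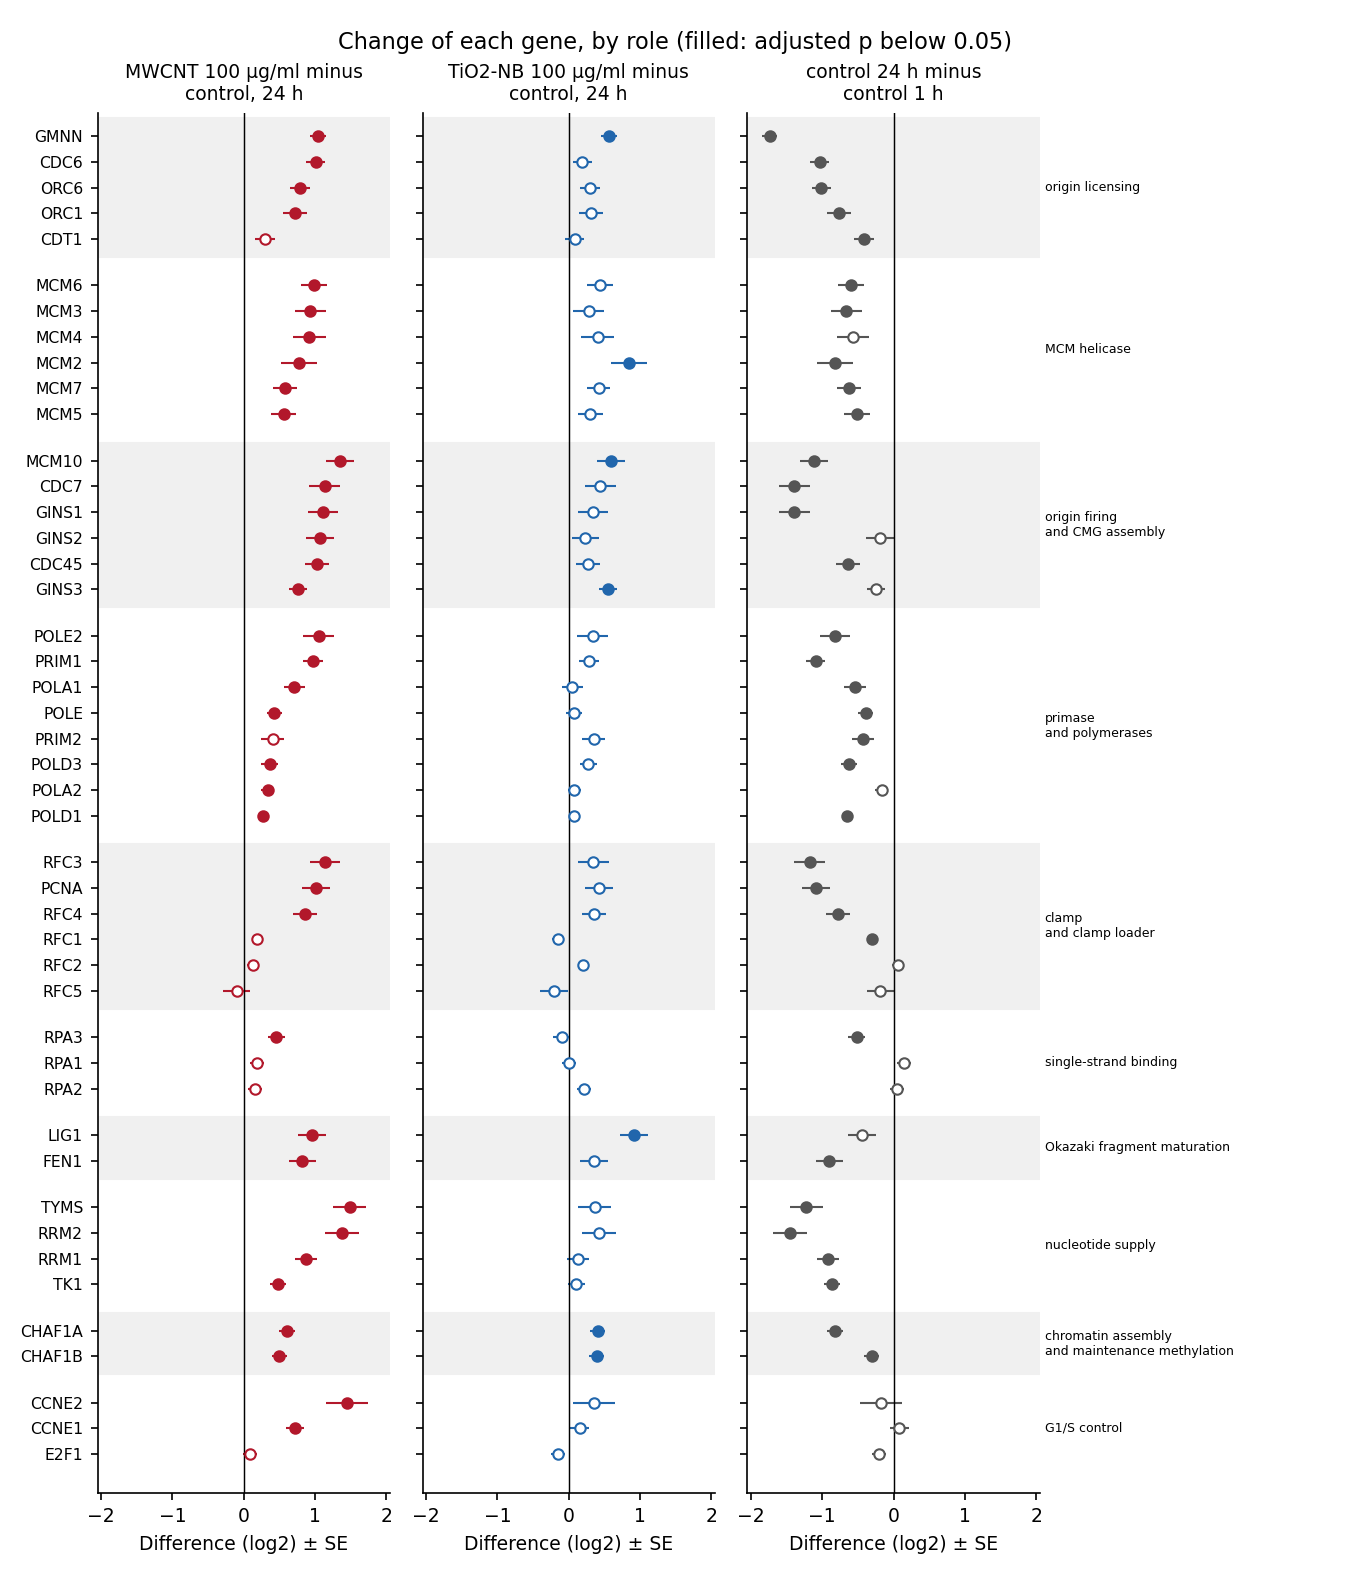
Each point is a replication gene's log2 fold change with its standard error, grouped by role, in panels for 100 µg/ml MWCNT minus control at 24 h, 100 µg/ml TiO2-NB minus control at 24 h, and control at 24 h minus control at 1 h; filled points passed an adjusted p under 0.05. With MWCNT 37 genes rose, with TiO2-NB 7 rose, and with time in the controls 33 fell.

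Among the licensing genes, 4 of 5 rose. GMNN had levels of 6.81, 6.85 and 6.78 with 100 µg/ml MWCNT, against 5.61, 5.82 and 5.89 in 24 h controls. The arrays were apart with a narrow spread in the exposed cells, and GMNN rose by 1.04 ± 0.11 (2.06-fold, adjusted p = 8.98e-07 by limma), the smallest adjusted p of the 45 genes. CDC6 (203968_s_at), the licensing ATPase, had levels of 6.88, 6.64 and 6.69, against 5.68, 5.66 and 5.84 in the controls, and rose by 1.01 ± 0.13 (adjusted p = 1.83e-05). ORC6 and ORC1, subunits of the origin recognition complex, rose by 0.79 ± 0.14 and 0.72 ± 0.17. CDT1 (209832_s_at), the partner of geminin, had levels of 6.17, 6.19 and 6.25, against 5.65, 5.94 and 6.12. Its arrays did not overlap, but its log2 fold change of 0.30 ± 0.14 did not pass the test (adjusted p = 0.172).

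All 6 subunits of the MCM2 to MCM7 helicase rose, with log2 fold changes of 0.56 to 0.99. MCM6 (201930_at), whose promoter held 4 E2F words, had levels of 9.64, 9.27 and 9.29 with 100 µg/ml MWCNT, against 8.13, 8.33 and 8.79 in controls. The groups did not overlap, and MCM6 rose by 0.99 ± 0.19 (adjusted p = 0.000708). MCM5 (216237_s_at), with the smallest change of the ring, had levels of 8.93, 8.54 and 8.54, against 7.83, 7.97 and 8.52. The highest control array came just below the exposed ones, and the change was 0.56 ± 0.18 (adjusted p = 0.035). MCM2 (202107_s_at) had levels of 8.46, 8.01 and 8.15, against 7.43, 7.06 and 7.79, and rose by 0.78 ± 0.25 (adjusted p = 0.0396). Leaving out 1 array ended the calls of MCM2, MCM4, MCM5 and MCM7, with adjusted p up to 0.164 for MCM2 without control replicate 2, and up to 0.0742, 0.217 and 0.134 for MCM4, MCM5 and MCM7 without control replicate 1.

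The 6 genes of origin firing and of the CMG helicase (CDC45, MCM and GINS) rose together, with a median of 1.09. MCM10 (220651_s_at), which helps activate the helicase, had levels of 5.93, 5.67 and 5.60 with 100 µg/ml MWCNT, against 3.99, 4.74 and 4.42 in controls. Its arrays were well apart, and it rose by 1.35 ± 0.20 (2.56-fold, adjusted p = 4.29e-05). GINS3 (218719_s_at), a GINS subunit and the gene of this role with the smallest change, had levels of 7.52, 7.41 and 7.34, against 6.63, 6.61 and 6.74. These groups did not overlap either, and the log2 fold change was 0.77 ± 0.13 (adjusted p = 0.000193). CDC7 rose by 1.14 ± 0.22, GINS1 by 1.11 ± 0.21, GINS2 by 1.07 ± 0.19 and CDC45 by 1.03 ± 0.17.

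Of the primase and polymerase genes, 7 of 8 rose, most by less than the helicase genes in log2 terms (median 0.42). POLE2 (205909_at), an accessory subunit of polymerase epsilon, had levels of 7.27, 7.04 and 6.99 with 100 µg/ml MWCNT, against 5.97, 5.92 and 6.25 in controls. The arrays did not overlap, and POLE2 rose by 1.05 ± 0.21 (adjusted p = 0.00142). POLD1 (203422_at), the catalytic subunit of polymerase delta, had levels of 7.70, 7.80 and 7.87, against 7.55, 7.58 and 7.42, and rose by 0.27 ± 0.08 (adjusted p = 0.017). PRIM1, the primase catalytic subunit, rose by 0.97 ± 0.14, POLA1 by 0.71 ± 0.15, POLE by 0.43 ± 0.11, POLD3 by 0.36 ± 0.12 and POLA2 by 0.34 ± 0.09. PRIM2, the large primase subunit, had a log2 fold change of 0.41 ± 0.16 (adjusted p = 0.0941). Leaving out 1 array ended the calls of POLA2 (adjusted p up to 0.0815 without MWCNT replicate 1), POLD1 (0.0915 without MWCNT replicate 3), POLD3 (0.169 without control replicate 1) and POLE (0.0686 without MWCNT replicate 1).

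On the probe sets used, the sliding clamp and its loader were split. PCNA (201202_at) had levels of 9.35, 8.98 and 8.98 with 100 µg/ml MWCNT, against 7.76, 8.09 and 8.43 in controls. All exposed arrays lay above the controls, and PCNA rose by 1.01 ± 0.20 (2.02-fold, adjusted p = 0.000896). RFC3 (204127_at), a small loader subunit, had levels of 8.08, 7.71 and 7.67, against 6.41, 6.61 and 7.03, and rose by 1.14 ± 0.22 (adjusted p = 0.00074). RFC4 rose by 0.86 ± 0.17, while RFC1, the large subunit, and RFC2 had log2 fold changes of 0.18 ± 0.07 (adjusted p = 0.091) and 0.12 ± 0.08 (adjusted p = 0.325). RFC5 (213734_at) had levels of 8.90, 8.43 and 8.25, against 8.46, 8.63 and 8.79. RFC5 was the gene with a log2 fold change below 0 (-0.10 ± 0.19, adjusted p = 0.802), and its groups overlapped. Its other probe sets rose (0.63 and 0.66), as did the other kept probe set of RFC1 (0.33). The other probe set of RFC2 did not pass (0.29 ± 0.12).

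Of the 3 subunits of RPA, the protein that coats unwound single strands, 1 rose. RPA3 (209507_at), the small subunit, had levels of 8.74, 8.52 and 8.60 with 100 µg/ml MWCNT, against 8.03, 8.08 and 8.38 in controls. It rose by 0.46 ± 0.12 with no overlap (adjusted p = 0.00938, or 0.0697 without control replicate 1). RPA2 (201756_at) had levels of 8.44, 8.35 and 8.32, against 8.18, 8.21 and 8.26, a log2 fold change of 0.16 ± 0.10 (adjusted p = 0.335). RPA1, the large subunit, had a log2 fold change of 0.18 ± 0.10 (adjusted p = 0.241).

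Both genes of Okazaki fragment maturation rose. LIG1 (202726_at), the ligase that seals the fragments, had levels of 7.78, 8.27 and 8.36 with 100 µg/ml MWCNT, against 7.11, 7.25 and 7.17 in controls. Its groups did not overlap, and LIG1 rose by 0.96 ± 0.20 (adjusted p = 0.0015). FEN1 (204767_s_at), the flap nuclease, had levels of 9.13, 8.87 and 8.80, against 7.78, 8.01 and 8.54, and rose by 0.82 ± 0.19 (adjusted p = 0.00518, or 0.0551 without control replicate 1). LIG1 was lowest on MWCNT replicate 1, the array on which FEN1 and most of the other genes described were highest.

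The 4 nucleotide supply genes rose, and TYMS had the largest fold change of the 45. TYMS (202589_at), thymidylate synthase, had levels of 10.34, 9.99 and 9.97 with 100 µg/ml MWCNT, against 8.27, 8.40 and 9.18 in controls. The exposed arrays lay well above the highest control, and TYMS rose by 1.49 ± 0.23 (2.80-fold, adjusted p = 8.55e-05). RRM2 had levels of 9.59, 9.40 and 9.37, against 7.74, 8.01 and 8.48, and rose by 1.38 ± 0.24 (adjusted p = 0.000321), while RRM1, the large reductase subunit, rose by 0.87 ± 0.15. TK1 (202338_at), the S phase thymidine kinase, had levels of 6.68, 6.54 and 6.55, against 6.07, 5.95 and 6.31, and rose by 0.48 ± 0.11 (adjusted p = 0.00558).

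Chromatin assembly factor 1, which places histones on new DNA, rose in both subunits measured. CHAF1A (214426_x_at) had levels of 7.753, 7.471 and 7.346 with 100 µg/ml MWCNT, against 6.699, 6.997 and 7.045 in controls, and rose by 0.61 ± 0.11 (adjusted p = 0.000411). CHAF1B (204775_at) had levels of 6.37, 6.50 and 6.26, against 5.92, 5.63 and 6.09, and rose by 0.50 ± 0.11 (adjusted p = 0.0024). Neither gene's groups overlapped.

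Of the G1/S regulators, both E cyclins rose and E2F1 did not pass the test. CCNE2 (205034_at) had levels of 8.50, 7.97 and 8.18 with 100 µg/ml MWCNT, against 6.23, 6.88 and 7.20 in controls. The exposed arrays lay above the controls, which spread widely among themselves, and CCNE2 rose by 1.45 ± 0.29 (2.73-fold, adjusted p = 0.0014). CCNE1 (213523_at) had levels of 7.89, 7.73 and 7.49, against 6.82, 6.86 and 7.28, and rose by 0.72 ± 0.13 (adjusted p = 0.000555). E2F1 (204947_at), whose own promoter held 2 E2F words, had levels of 7.09, 6.87 and 6.80, against 6.71, 6.82 and 6.97. Its groups overlapped, and its log2 fold change was 0.09 ± 0.10 with a 95% interval of -0.12 to 0.30 (adjusted p = 0.638).

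**Figure D3:**
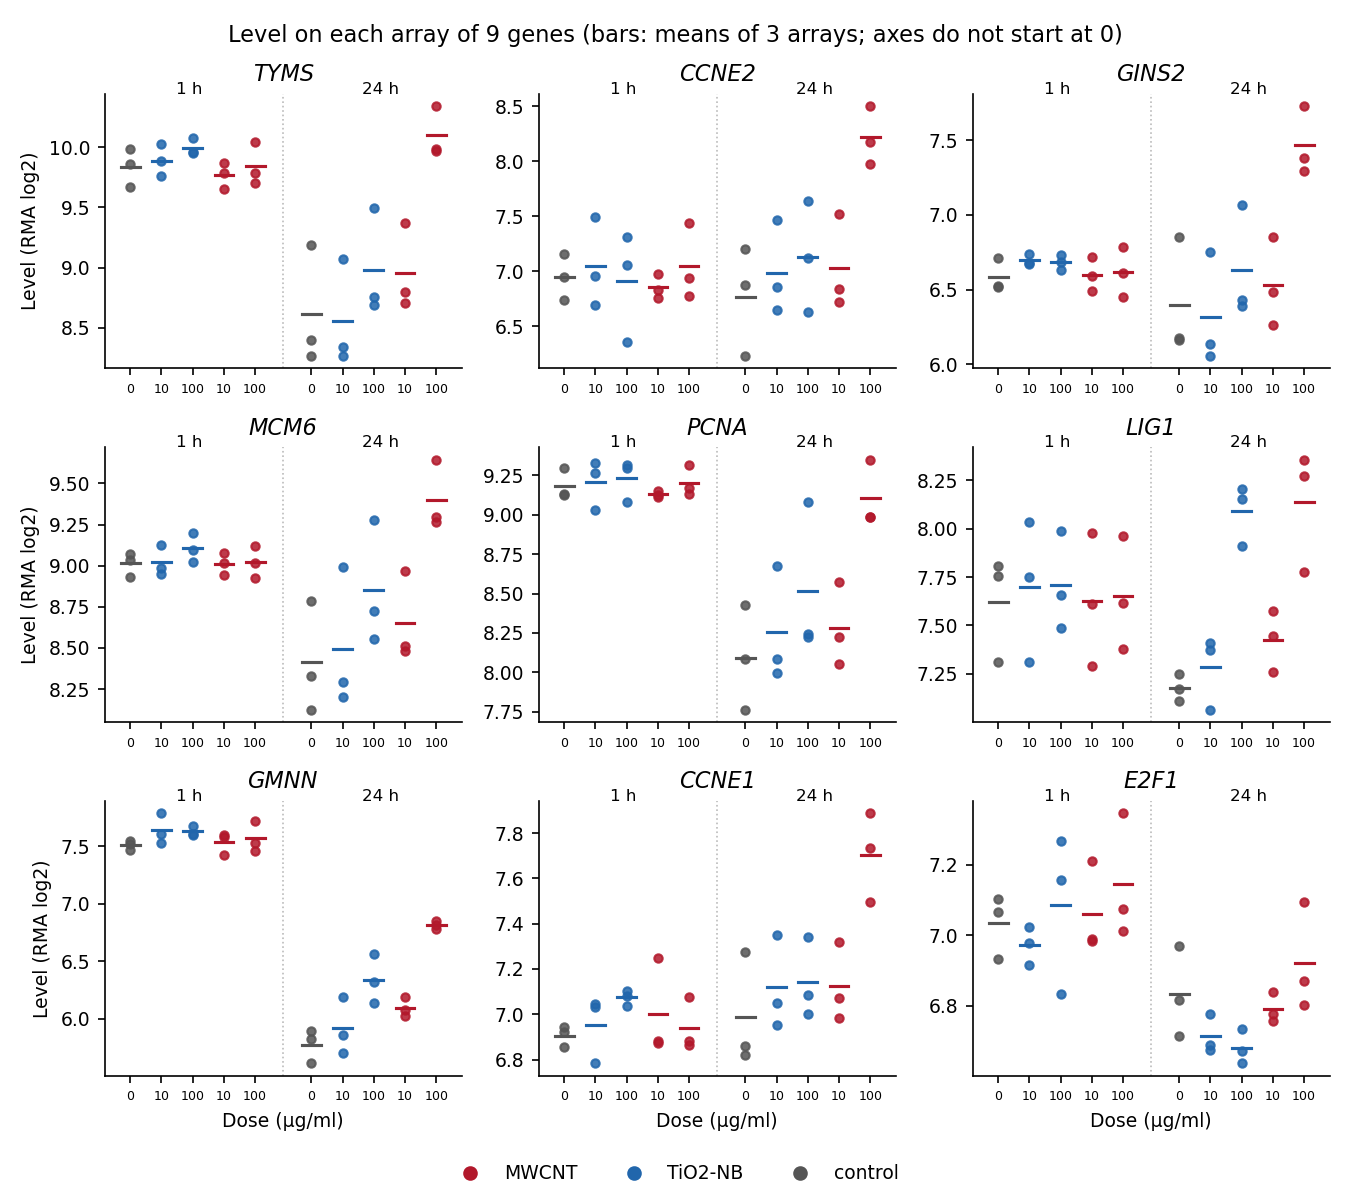
Log2 intensities of TYMS, CCNE2, GINS2, MCM6, PCNA, LIG1, GMNN, CCNE1 and E2F1 are plotted on each array, with points for arrays and bars for group means, and with axes that do not start at 0. The arrays with 100 µg/ml MWCNT at 24 h lie above the 24 h controls for each gene but E2F1, and LIG1 is also raised with 100 µg/ml TiO2-NB.

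After 24 h with 10 µg/ml, neither material gave a call among these genes. With MWCNT the limma test called 0 of 45 genes, as it called 0% of all genes, and 1 gene had an unadjusted p under 0.05, GMNN at 0.32 ± 0.11, where 4.19% of all genes did. GMNN had levels of 6.02, 6.08 and 6.19 with 10 µg/ml MWCNT, against 5.61, 5.82 and 5.89 in controls. The arrays did not overlap, although the change did not pass after adjustment. Fold changes were above 0 for 37 of the 45 genes, from -0.09 to 0.34 with a median of 0.15. With 10 µg/ml TiO2-NB limma called 0 of 45 genes, beside 0.0199% of all genes, and 0 had an unadjusted p under 0.05, where 4.72% of all genes did. There 32 genes were above 0, with a median of 0.07. At 10 µg/ml MWCNT against 10 µg/ml TiO2-NB, limma called 0 of 45 genes and 0 had an unadjusted p under 0.05, where 0.00995% of all genes were called and 10.3% had an unadjusted p under 0.05. The median there was 0.10.

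At 1 h the replication genes gave no call with any exposure. With 10 µg/ml MWCNT the median log2 fold change was -0.01, with 100 µg/ml MWCNT 0.02, and with 10 µg/ml TiO2-NB 0.03. For 100 µg/ml TiO2-NB it was 0.11, beside 0.04 over all genes, and on 10 genes the exposed arrays lay above the controls, a pattern found for 11.6% of all genes. By limma 0 of 45 genes passed in each of these comparisons, where 1.15% of all genes passed with 100 µg/ml TiO2-NB and 0% with each of the others. At an unadjusted p under 0.05 the counts were 0, except for 1 gene with 10 µg/ml TiO2-NB (RFC2, 0.16). Of the 10050 genes tested, 162 and 293 were under it with 10 and 100 µg/ml MWCNT, and 213 and 1582 (15.7%) with 10 and 100 µg/ml TiO2-NB. Between the materials limma also called 0 of 45 genes at 1 h, where it called 1.42% of all genes at 100 µg/ml and 0% at 10 µg/ml. Between the doses it called 0 of 45 genes at 1 h, beside 0% of all genes for MWCNT and 0.0796% for TiO2-NB. At an unadjusted p under 0.05 these comparisons had 0 genes, except for 1 between the TiO2-NB doses (RFC1, 0.15), where 2.63% and 14.5% of all genes were under it between the materials at 10 and 100 µg/ml, and 2.91% and 10.2% between the doses of MWCNT and TiO2-NB.

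After 24 h with 100 µg/ml TiO2-NB, 7 of 45 genes rose and 0 fell (15.6%), where 10.9% of all genes rose and 11.1% fell, so the share that rose was near that over all genes. On 9 genes the exposed arrays lay above the controls, beside 16.6% of all genes. Fold changes were above 0 for 41 genes with a median of 0.30, beside 0.01 over all genes. The 7 genes were LIG1, MCM2, MCM10, GMNN, GINS3, CHAF1A and CHAF1B. LIG1 had levels of 7.91, 8.21 and 8.16 with 100 µg/ml TiO2-NB, against 7.11, 7.25 and 7.17 in controls. The groups did not overlap, and LIG1 rose by 0.91 ± 0.20 (adjusted p = 0.00136 by limma). MCM2 had levels of 8.51, 8.16 and 8.15, against 7.43, 7.06 and 7.79, and rose by 0.85 ± 0.25 (adjusted p = 0.0163). GMNN had levels of 6.56, 6.14 and 6.32, against 5.61, 5.82 and 5.89, and rose by 0.56 ± 0.11 (adjusted p = 0.000474). GINS3 had levels of 7.48, 7.06 and 7.09, against 6.63, 6.61 and 6.74, and rose by 0.55 ± 0.13 (adjusted p = 0.00271). For MCM2, GMNN and GINS3 the arrays of both groups were apart, while those of MCM10 overlapped (0.60 ± 0.20, adjusted p = 0.0298). CHAF1A and CHAF1B rose by 0.41 ± 0.11 and 0.39 ± 0.11.

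Other genes spread widely among the TiO2-NB arrays. PCNA had levels of 9.08, 8.25 and 8.23 with 100 µg/ml TiO2-NB, against 7.76, 8.09 and 8.43 in controls, and TYMS had 9.50, 8.76 and 8.69, against 8.27, 8.40 and 9.18. In both genes replicate 1 stood above the other two and the groups overlapped (0.43 ± 0.20 with adjusted p = 0.13 for PCNA, 0.36 ± 0.23 with adjusted p = 0.284 for TYMS). Fold changes below 0 were those of RFC5 (-0.21), RFC1 (-0.16), E2F1 (-0.15) and RPA3 (-0.10), none of which passed. The number that rose was 4 without TiO2-NB replicate 1, 12 without control replicate 3, 4 with only the arrays compared and 2 with the replicate number as a block among them. Without 1 array the calls of MCM2 (adjusted p up to 0.102 without control replicate 2), MCM10 (0.216 without TiO2-NB replicate 1), CHAF1A (0.0723 without control replicate 1) and CHAF1B (0.0966 without control replicate 2) were lost at least once.

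Set directly against TiO2-NB at 100 µg/ml and 24 h, MWCNT gave higher levels of 26 of 45 genes and lower levels of 0 (57.8%), where 14% of all genes were higher and 10.9% lower. On 26 genes the MWCNT arrays lay above the TiO2-NB arrays, a pattern found for 20.9% of all genes. The median difference was 0.48 on the log2 scale. TYMS (202589_at) had levels of 10.34, 9.99 and 9.97 with MWCNT, against 9.50, 8.76 and 8.69 with TiO2-NB. These arrays did not overlap, and the difference was 1.12 ± 0.23 (adjusted p = 0.00104). CCNE2 had 8.50, 7.97 and 8.18, against 7.64, 6.63 and 7.12, a difference of 1.09 ± 0.29 (adjusted p = 0.00904). CDC6 had 6.88, 6.64 and 6.69, against 6.15, 5.99 and 5.61, a difference of 0.82 ± 0.13 (adjusted p = 0.000111). In each of these genes the MWCNT arrays lay above the TiO2-NB arrays. GINS2 and CCNE1 differed by 0.84 ± 0.19 and 0.56 ± 0.13. By role, 5 of 6 firing genes, 5 of 8 primase and polymerase genes and 4 of 4 nucleotide supply genes were higher with MWCNT. So were 4 of 6 clamp and loader genes, 3 of 5 licensing genes and 2 of 3 G1/S regulators. Fewer passed among MCM subunits (2 of 6), single-strand binding subunits (1 of 3), Okazaki fragment genes (0 of 2) and chromatin assembly genes (0 of 2).

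Some genes that rose with both materials did not differ between them beyond the spread. LIG1 differed by 0.04, with a 95% interval of -0.36 to 0.45 (adjusted p = 0.891), and MCM2 by -0.07, with an interval of -0.58 to 0.45 (adjusted p = 0.874). Besides MCM2, RFC2 (-0.08 ± 0.08) and RPA2 (-0.06 ± 0.10) had differences below 0. E2F1 was 7.09, 6.87 and 6.80 with MWCNT, against 6.73, 6.64 and 6.67 with TiO2-NB, which did not overlap but did not pass (0.24 ± 0.10, adjusted p = 0.0819). The count of 26 became 16 without MWCNT replicate 1, 13 without TiO2-NB replicate 2 and 16 without TiO2-NB replicate 3. Without 1 array 14 of the 26 calls were lost at least once, and 12 were kept each time. Those lost were ORC6, MCM3, MCM6, CDC7, MCM10, GINS1, POLA2, POLE, POLE2, PCNA, RFC3, RFC4, TK1 and CCNE2. For CCNE2 adjusted p by limma was up to 0.0688, without TiO2-NB replicate 2.

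Within a material, the doses were compared at 24 h. With 100 µg/ml MWCNT 29 of 45 genes were higher and 0 lower than with 10 µg/ml, where 3.1% of all genes were higher and 1.56% lower, and the median difference was 0.60. On 37 genes the 100 µg/ml arrays lay above the 10 µg/ml arrays, a pattern found for 13.6% of all genes, and RFC5 alone had a difference below 0 (-0.08). For TiO2-NB 5 of 45 genes were higher with 100 than with 10 µg/ml and 0 lower (11.1%), where 7.38% of all genes were higher and 6.1% lower. This share was near that over all genes, and the median difference was 0.24. The 5 genes were LIG1 (0.81), MCM2 (0.76), GINS3 (0.55), GMNN (0.42) and RFC2 (0.28). Below 0 were POLA2, POLD1, E2F1, RPA3, RFC1 and RFC5, with differences of -0.02 to -0.24. The MWCNT count was 10 without the 10 µg/ml replicate 1, 13 without the 10 µg/ml replicate 2 and 13 without the 100 µg/ml replicate 1. The TiO2-NB count was 2 without the 10 µg/ml replicate 2, 10 without the 10 µg/ml replicate 3 and 2 without the 100 µg/ml replicate 1. With only the arrays compared these counts were 18 for MWCNT and 2 for TiO2-NB, and with the replicate number as a block among them 3 and 1.

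With 100 µg/ml MWCNT the levels at 24 h were set against those at 1 h, a comparison added after the other results were known. Between 24 h and 1 h 5 of 45 genes rose, where 22.7% of all genes rose, and 2 fell, where 17.7% of all genes fell, and the median change was -0.01. With array weights 22 of 45 genes were called in place of 7, 10 of them higher at 24 h. TYMS had levels of 10.34, 9.99 and 9.97 at 24 h, against 10.05, 9.70 and 9.79 at 1 h (0.26 ± 0.23, adjusted p = 0.398). GINS2 had levels of 7.73, 7.38 and 7.30, against 6.79, 6.61 and 6.45, and rose by 0.85 ± 0.19 (adjusted p = 0.000995). CCNE2 had 8.50, 7.97 and 8.18, against 7.43, 6.78 and 6.94, and rose by 1.17 ± 0.29 (adjusted p = 0.0025). CCNE1 had 7.89, 7.73 and 7.49, against 7.08, 6.88 and 6.86, and rose by 0.76 ± 0.13 (adjusted p = 5.61e-05). For both E cyclins and GINS2 the 24 h arrays lay above the 1 h arrays, so their level with 100 µg/ml MWCNT at 24 h passed the level at 1 h. GINS3 and RPA1 also rose, by 0.42 ± 0.13 and 0.34 ± 0.10, while GMNN fell by 0.76 ± 0.11 and POLD1 by 0.34 ± 0.08.

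In the other exposures, by comparisons also added after the other results were known, most of the replication genes fell with time too. With 10 µg/ml MWCNT 28 genes fell and 1 rose (RPA1, 0.24), where 18.5% of all genes fell and 24.4% rose, with a median of -0.45. The 10 µg/ml TiO2-NB cells had 31 genes that fell and 0 that rose, where 15.6% of all genes fell and 18.5% rose, with a median of -0.65. In cells with 100 µg/ml TiO2-NB 28 fell and 1 rose (RPA2, 0.25), where 20.7% of all genes fell and 26.1% rose, with a median of -0.51. Above 0 but not past the test were CCNE1, CCNE2 and RPA2 with 10 µg/ml MWCNT, and CCNE1, RFC5, RPA1 and RPA2 with 10 µg/ml TiO2-NB. Those with 100 µg/ml TiO2-NB were LIG1, CCNE2, MCM2, RFC2, GINS3, CCNE1 and RPA1, with changes of 0.04 to 0.38. Of the 6 MCM subunits 0 fell with 100 µg/ml TiO2-NB by limma (median -0.24), against 5 of 6 in controls (median -0.61), and LIG1 had a change of 0.38 against -0.45. The direct limma test of such a difference, the interaction given next, passed for LIG1 but for no MCM subunit (MCM2 at adjusted p = 0.069, the others higher).

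The difference between the exposure effect at 24 h and that at 1 h was tested as an interaction. For 100 µg/ml MWCNT it passed for 18 of 45 genes, with the effect higher at 24 h in each, where 2.64% of all genes passed in that direction and 1.07% in the other. The median was 0.78, and RFC5 and E2F1, both at -0.02, were the genes below 0. TYMS had the largest value, 1.48 ± 0.32 (adjusted p = 0.01), followed by RRM2 at 1.34, and GMNN at 0.98 had the smallest adjusted p (0.000686). This count moved with single arrays: it was 4 without 1 h control replicate 1, 9 without 1 h control replicate 3, 6 and 9 without replicates 2 and 3 of 100 µg/ml MWCNT at 1 h, and 5, 6 and 29 without 24 h control replicates 1, 2 and 3. It was 8 without replicate 1 and 8 without replicate 2 of 100 µg/ml MWCNT at 24 h. For 100 µg/ml TiO2-NB it passed for 2 of 45 genes, LIG1 at 0.83 ± 0.28 (adjusted p = 0.0434) and GMNN at 0.45 ± 0.15 (adjusted p = 0.0486), where 7.49% of all genes passed in that direction and 8.85% in the other. The TiO2-NB count was 0 without 1 h control replicate 1, without replicate 2 or 3 of 100 µg/ml TiO2-NB at 1 h, or without 24 h control replicate 1 or 2, and 1 without 1 h control replicate 2 or 3 or 24 h TiO2-NB replicate 2. For both materials at 10 µg/ml limma passed 0 of 45 genes, as it passed 0% of all genes, and at an unadjusted p under 0.05 there were 0 with MWCNT and 1 with TiO2-NB (RFC2, -0.24), beside 4.06% and 2.55% of all genes.

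Mitosis genes, which act after S phase, differed from the replication genes in how their levels at 24 h stood to those at 1 h. Against controls at 24 h, 20 of 28 mitosis genes tested rose and 0 fell with 100 µg/ml MWCNT, where 8.99% of all genes rose. The median was 0.76, beside 0.78 for the replication genes. NDC80 rose by 1.31, CDK1 by 1.16, BUB1B by 1.15 and NUSAP1 by 1.09. Between 24 h and 1 h with 100 µg/ml MWCNT, however, 27 of the 28 fell and 0 rose, where 17.7% of all genes fell. The median there was -1.31. DLGAP5 had a change of -2.21, CDC20 of -2.17, BUB1 of -2.08 and TTK of -2.07. In controls 27 of 28 fell with time, where 16.1% of all genes fell, with a median of -2.29. Array means of the 28 genes were 6.96 to 7.10 with 100 µg/ml MWCNT at 24 h, 6.50 to 6.73 with 100 µg/ml TiO2-NB at 24 h and 6.30 to 6.45 in 24 h controls, against 8.15 to 8.56 in 1 h controls. The level of the mitosis genes with 100 µg/ml MWCNT at 24 h thus lay between both controls, while the mean of the replication genes lay near the 1 h level. The difference between the lists was not tested.

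**Figure D4:**
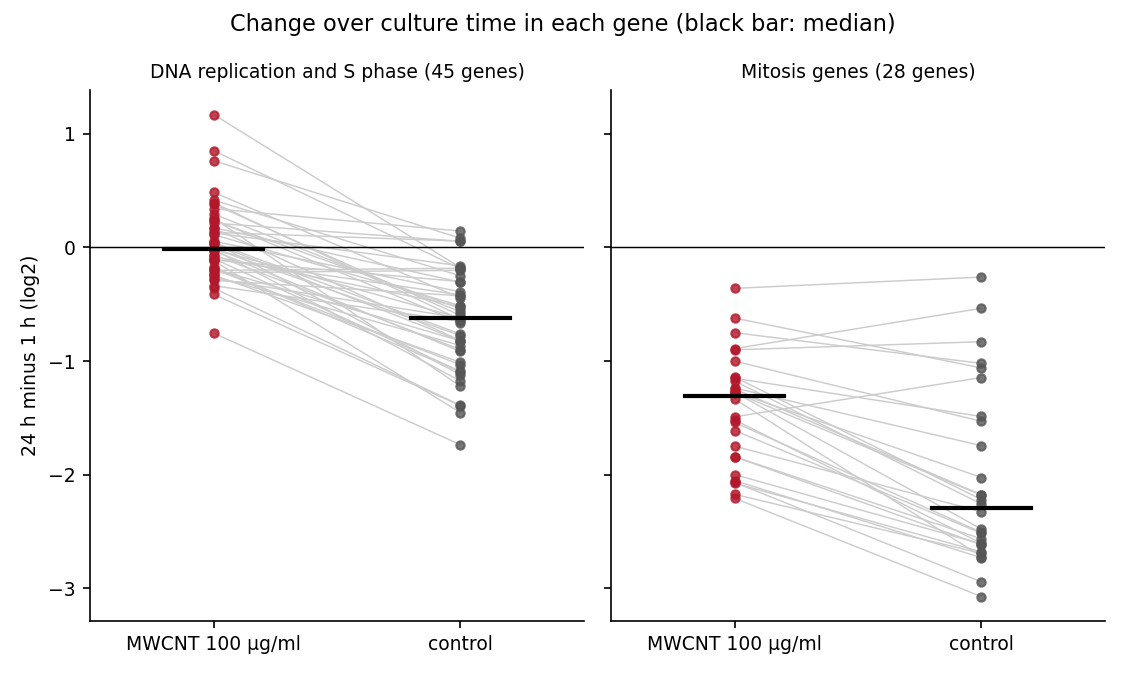
Each point is a gene's log2 change between 24 h and 1 h, with 100 µg/ml MWCNT and in controls, for 45 replication genes and 28 mitosis genes, and black bars are medians. The replication genes have medians of -0.01 with MWCNT and -0.62 in controls, and the mitosis genes -1.31 and -2.29.

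Other genes of the pathway were described by lists, whose counts with 100 µg/ml MWCNT are read beside the 8.99% of all genes that rose and the 4.04% that fell. Against controls at 24 h, 11 of 24 other replication factors rose and 1 fell with 100 µg/ml MWCNT, with a median of 0.20, among them WDHD1 (0.74) and TIPIN (0.62), fork proteins, ASF1B (0.71), a histone chaperone, and RNASEH2A (0.56), an RNase H subunit. The gene that fell was DNMT1, the maintenance methyltransferase (-0.18). Of 11 genes of nucleotide and histone supply 8 rose and 0 fell, with a median of 0.46, including CTPS1 (0.66), PAICS (0.62), DUT (0.51) and NASP (0.51). Of 14 E2F and RB regulators 8 rose and 0 fell, with a median of 0.32. E2F8, an atypical repressor E2F, rose by 1.40 ± 0.27, CDC25A, the phosphatase that activates CDK2, by 1.17 ± 0.17, CCNA2 by 0.93 and RBL1 by 0.66. Of 15 replication stress and DNA damage response genes 10 rose and 1 fell, with a median of 0.54. RAD51AP1 rose by 1.35, FANCI by 1.03, EXO1 by 0.85 and BRCA1 by 0.84, while SESN1, a p53 target, changed by -0.46. These 4 genes that rose act in DNA repair and at stalled forks. The median over all genes was -0.01.

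Of 12 CDK inhibitors, D cyclins and their kinases tested, 1 rose with 100 µg/ml MWCNT, CDK4 (0.33 ± 0.08), and 0 fell, a share near the 8.99% of all genes that rose, with a median of -0.03. CDKN1A (202284_s_at), the inhibitor p21, had levels of 11.74, 11.86 and 11.85 with 100 µg/ml MWCNT, against 12.20, 12.11 and 11.86 in 24 h controls. The highest exposed array and the lowest control array were nearly equal, so the groups overlapped slightly, and the log2 fold change of -0.24 ± 0.10 did not pass (adjusted p = 0.123). CDKN1B, the inhibitor p27, had a log2 fold change of -0.32 ± 0.15 (adjusted p = 0.159), and CCND1 (0.11), CCND2 (-0.16) and CCND3 (0.03) did not pass either. CDKN1A was 11.86, 12.24 and 12.18 with 100 µg/ml TiO2-NB, and MWCNT was lower than TiO2-NB by a log2 difference of -0.28 (adjusted p = 0.043). Between 24 h and 1 h in controls CDKN1A rose by 0.58 and CCND1 by 0.54, while CDKN1B fell by 0.61.

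With 100 µg/ml TiO2-NB against controls at 24 h, the calls in the lists are read beside the 10.9% of all genes that rose and the 11.1% that fell. Of 28 mitosis genes 3 rose and 0 fell, a share near that over all genes, namely BIRC5 (0.51), NUSAP1 (0.49) and CENPF (0.39), with a median of 0.30. Of 14 E2F and RB regulators 3 rose, CDC25A (0.74), CDK2 (0.48) and E2F6 (0.36), and RBL2 changed by -0.32. Of 12 CDK inhibitor and D cyclin genes 3 rose, CCND1 (0.36), BTG1 (0.34) and CDK4 (0.31), and GADD45A fell by 0.78. Of 15 damage response genes RAD51AP1 (0.66), CHEK1 (0.59), EXO1 (0.46), BRCA1 (0.39) and DDB2 (0.35) rose, while SESN1 changed by -0.58. The 11 genes of nucleotide and histone supply did not pass. Of the 24 other replication factors only WDHD1 (0.87), DBF4 (0.44) and DNA2 (0.41) rose, a share near that over all genes, and DNMT1 changed by -0.36. In the control time comparison 9 of 24 other replication factors, 8 of 14 E2F and RB regulators and 11 of 15 damage response genes fell. There 16.1% of all genes fell and 20.8% rose. CCNA2 (-1.77), DBF4 (-1.22) and RAD51AP1 (-2.06) were among the genes of these lists that fell. Marker genes moved beside these counts. With 100 µg/ml TiO2-NB 4 of 9 macrophage and monocyte markers fell and 0 rose, namely MSR1 (-0.94) and CD163 (-0.82), which are scavenger receptors, CSF1R (-0.37) and TYROBP (-0.22). FLT3, of the promonocyte and granule markers, fell by 0.50, and COL1A2, of the fibroblast markers, rose by 0.34. With 100 µg/ml MWCNT 1 of 9 macrophage and monocyte markers rose, MARCO (0.71), and 0 fell. Of the 8 promonocyte and granule markers MYB rose with 100 µg/ml MWCNT (0.58 ± 0.17, adjusted p = 0.0221). MPO had 0.01, and the others had log2 fold changes below 0 that did not pass, AZU1 of -0.32, ELANE and PRTN3 of -0.30 each, FLT3 of -0.29, CEBPE of -0.23 and CTSG of -0.14.

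Where a gene had further probe sets they mostly moved the same way. The 17 genes with several kept probe sets had 21 others besides the ones that stood for them, and with 100 µg/ml MWCNT at 24 h 14 of these rose and 0 fell, with a median of 0.63, and 19 had the sign of the probe set used. RFC5 was split, since 213734_at had -0.10 while 203209_at rose by 0.63 (adjusted p = 0.0042) and 203210_s_at by 0.66 (adjusted p = 0.0027). RFC1 rose on 208021_s_at (0.33, adjusted p = 0.0006) but not on 209085_x_at. TYMS had a weak second probe set, 217684_at, at 0.12 (adjusted p = 0.565), and CCNE2 was raised on 211814_s_at as well (1.13). With 100 µg/ml TiO2-NB at 24 h 217684_at rose by limma (0.38, adjusted p = 0.0201). For MWCNT against TiO2-NB it had -0.26 (adjusted p = 0.107), opposite to 202589_at. In that comparison 18 of the 21 other probe sets had the sign of the probe set used. The call of CHAF1A with 100 µg/ml TiO2-NB rests on 214426_x_at (0.41), since 203975_s_at and 203976_s_at each had -0.12. The probe sets used for ORC6, RFC1 and CHAF1A are of the x_at kind, whose probes may also match other sequences.

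**Figure D5:**
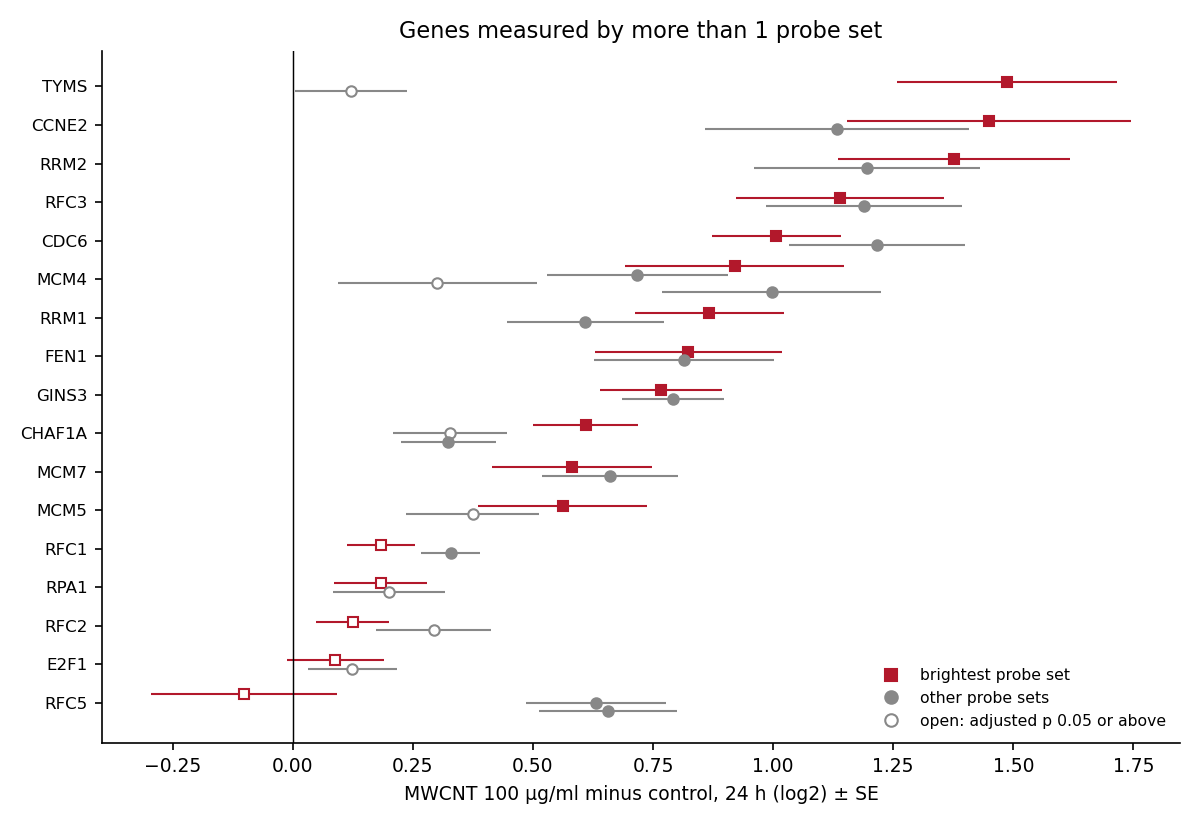
Log2 fold changes of 100 µg/ml MWCNT minus control at 24 h are plotted for each kept probe set of the 17 genes that have several, with the probe set used marked apart from the others. RFC5 spans -0.10 to 0.66, and the other probe sets have a median of 0.63.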

How the data were processed

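RNA of PMA-treated THP-1 cells was measured on 30 Affymetrix arrays. The deposited log2 intensities had been background-corrected, normalized between arrays and summarised per probe set by the authors with RMA, as the submitters' processing notes say without a version. They were used as deposited. Of 22277 probe sets, 62 were controls, and 19064 of the others had 1 gene in the platform annotation. A low-value filter (more than the 25th percentile of an array, on 3 or more arrays) kept 15309 of these, and taking for each gene the one with the highest mean gave 10050 genes.

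Each comparison was tested with limma 3.58.1 in R 4.3.3 (lmFit and eBayes, two-sided), using 1 model of 10 group means over the 30 arrays, with 20 residual degrees of freedom. The Benjamini-Hochberg adjustment covered all genes within each of 21 planned and 4 added comparisons, and calls needed an adjusted p under 0.05. Fold changes carry the standard errors of the model. Precision is limited by the number of arrays, which have no read depth. The code was tested on simulated data. Promoter sequences and positions are those of RefSeq on GRCh38.p14, and the files give no genome positions.

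The members, lists, tests and motif words were chosen with earlier results of these data known. Values on each array are given for the members of each role with the largest and the smallest change with 100 µg/ml MWCNT at 24 h, and for PCNA, MCM2, CCNE1, CCNE2, E2F1 and CDKN1A. Of each list up to 4 called genes with the largest change are named. Beyond these, DDB2, the CDK inhibitors and D cyclins, and genes that run against the others are named. The remaining values on each array, the probe sets and the marker genes named were chosen after their values were seen.

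Replicate numbers come from the labels. Equally numbered arrays deviated together from their group means (each correlation over 0.1) in 9 of 21 comparisons, among them MWCNT against TiO2-NB at 100 µg/ml and 24 h (0.36 to 0.62), and not for 100 µg/ml against control at 24 h (-0.51 to 0.06 for MWCNT, -0.48 to -0.06 for TiO2-NB). The model left the number out, and including it as a block is an alternative. Other alternatives were the filter, the probe set of a gene, 2 other scalings, only the arrays compared, another prior, array weights and each array left out.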

Additional observations from a re-analysis of the deposited data

Results flagged for a closer look

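The effect of 100 µg/ml MWCNT differed between 24 h and 1 h, by the test of the difference itself in limma, for 18 of the 45 replication genes. The 6 genes with the largest difference were TYMS at 1.48, RRM2 at 1.34, MCM10 and RFC3 at 1.16 each, GINS2 at 1.04 and CDC45 at 1.03 on the log2 scale, with the effect higher at 24 h in each. The effect of 100 µg/ml TiO2-NB differed between 24 h and 1 h for 2 genes, LIG1 at 0.83 and GMNN at 0.45. Both tests share the control arrays, and the count for MWCNT ranged from 4 to 29 and that for TiO2-NB from 0 to 3 when 1 array was left out, as given in the results.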

How the results depend on the processing

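The medians given below kept their direction under each alternative run, while member counts moved. With array weights the calls for 24 h against 1 h with 100 µg/ml MWCNT went from mostly higher to mostly lower at 24 h. Against control at 24 h, 17 of the 37 genes that rose with 100 µg/ml MWCNT and 1 of the 7 with 100 µg/ml TiO2-NB were called under every alternative, as were 11 of the 26 higher with MWCNT than with TiO2-NB and 25 of the 33 that fell with time in controls. With 1 array left out the number called was 29 to 35 and the median 0.71 to 0.90 for 100 µg/ml MWCNT, 4 to 12 and 0.14 to 0.44 for 100 µg/ml TiO2-NB, 13 to 29 and 0.37 to 0.61 for MWCNT against TiO2-NB, and 27 to 33 and -0.79 to -0.53 for time in controls. The number was 10 to 27 for MWCNT dose, 2 to 10 for TiO2-NB dose, 4 to 29 and 0 to 3 for the difference of the 100 µg/ml effects of MWCNT and TiO2-NB between both times, and 22 to 32, 7 to 10, 24 to 35 and 24 to 31 for 24 h against 1 h with 10 and 100 µg/ml MWCNT and 10 and 100 µg/ml TiO2-NB.

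With only the arrays compared, the number was 4 for 100 µg/ml TiO2-NB against control, 18 for MWCNT dose and 2 for TiO2-NB dose. With the replicate number as a block among the arrays compared, an alternative chosen after seeing the data, it was 17 for 100 µg/ml MWCNT and 2 for 100 µg/ml TiO2-NB against control, 3 for MWCNT dose and 1 for TiO2-NB dose, and 33 for MWCNT against TiO2-NB. As a block over all groups it gave 37, 7 and 26 for these comparisons of 100 µg/ml, and 1 in place of 2 for the TiO2-NB difference between times. That difference also gave 1 without the filter and 1 with a trended robust prior. Array weights gave 32 for the MWCNT difference between times and 22 for 24 h against 1 h with 100 µg/ml MWCNT. RFC5 turned to 0.40 with the mean of its probe sets, 0.63 with the probe set of highest variance and, with 1 array left out, ranged from -0.29 to 0.04 (0.035 without 100 µg/ml MWCNT replicate 3), and CHAF1A with 100 µg/ml TiO2-NB to -0.12 with the probe set of highest variance. Other probe sets made the RFC5 and CHAF1A changes, and the cause of the others was not tested.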
